A study of Mus musculus with 6 samples.

Results

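The genes described here are white adipocyte and lipid storage genes: 34 symbols for adipocyte transcription factors, adipokines, lipid uptake, triglyceride synthesis, lipid droplet and lipolysis proteins. They were chosen by symbol and not by a rule on their values, but with earlier results of these data known. The deposited count table lists 34590 genes and holds 33 of the 34 symbols. Mest2 was not matched, and all 33 others passed the filter on low counts, which kept 17345 genes.

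RNA was profiled from 3 pairs of contralateral inguinal mammary glands (gland number 4), 1 pair per host mouse, by single-end RNA-seq. In each host the left gland had been engrafted with WT.EGFP+ mammary epithelium (n = 3) and the right gland with Adamts18-/-.EGFP+ epithelium (n = 3). Hosts were wild-type females whose own epithelium had been removed from the fat pad at 3 weeks of age. Donor epithelium of both genotypes carried enhanced green fluorescent protein under a chicken β-actin promoter, and the Adamts18 allele lacks the exons for the catalytic site of this secreted metalloprotease. The fat pad around the graft was therefore wild-type on both sides. Age at collection was not given in the sources used here. The WT side was the left in all hosts, so genotype and body side cannot be told apart. The study describes independent experiments with a different donor each, so host, donor and experiment cannot be told apart either.

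White adipocytes store fatty acids as triglyceride in a single large lipid droplet coated with perilipins and release them again by lipolysis. Their identity rests on the transcription factors Pparg and Cebpa, which switch on the genes of lipid uptake, storage and release and the secreted adipokines. In the mammary gland these cells fill the fat pad into which the epithelial ducts grow, and they pass lipids and signals to the epithelium.

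Total counts ranged from 53875123 to 71595924 per library, so that the upper limit of 3 counts behind a 0 corresponded to 0.043 to 0.057 CPM (gene counts divided by the TMM-adjusted depth of each library). This covers counting error only. Adamts18 itself stood, for mice 1, 2 and 3, at 3.61, 9.92 and 6.80 CPM in WT glands and at 2.75, 4.87 and 3.29 CPM in the contralateral Adamts18-/- glands. It was lower on the Adamts18-/- side in each host. Counts per gene also take reads from exons that the allele keeps. The study also reported Adamts18 expression in the stroma, which was wild-type on both sides. The share of each source was not tested.

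The promoters of 3 members are shown because these windows hold the letters TTGCNNAA, a core that C/EBP factors can bind. They were picked for these letters, and a part of C/EBP factors in the members' levels was not tested. The sequences are the 250 bases before an annotated start, written 5′ to 3′ along the gene, from the RefSeq promoter table for GRCm38.p6. Capitals mark TTGCNNAA on either strand. The window of Lep, which encodes the satiety hormone leptin, lies at chr6:29059971-29060220 on the plus strand. That of Plin1, which encodes the main droplet coat protein, lies at chr7:79732777-79733026 on the minus strand. The third window is a downstream start of Pparg, at chr6:115421816-115422065 on the plus strand.
Lep: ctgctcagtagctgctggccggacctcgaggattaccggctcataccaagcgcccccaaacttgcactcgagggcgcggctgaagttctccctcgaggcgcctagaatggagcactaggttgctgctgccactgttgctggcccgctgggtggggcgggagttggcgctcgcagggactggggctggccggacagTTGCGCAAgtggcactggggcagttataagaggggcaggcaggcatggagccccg
Plin1: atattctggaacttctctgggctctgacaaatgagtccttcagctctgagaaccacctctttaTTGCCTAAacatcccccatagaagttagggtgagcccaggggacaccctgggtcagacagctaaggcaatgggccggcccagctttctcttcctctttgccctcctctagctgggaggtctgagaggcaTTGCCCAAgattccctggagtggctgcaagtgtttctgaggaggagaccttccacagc
Pparg: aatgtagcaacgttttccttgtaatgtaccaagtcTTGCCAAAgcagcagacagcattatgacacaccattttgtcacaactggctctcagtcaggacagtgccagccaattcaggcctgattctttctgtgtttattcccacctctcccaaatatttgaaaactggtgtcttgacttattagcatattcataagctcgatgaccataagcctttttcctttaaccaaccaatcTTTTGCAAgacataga

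The table held 35 promoter windows for 24 of the members. TTGCNNAA was present in 5 of the 35 windows (14.3%), belonging to Cidec, Lep, Plin1, Pparg and Rbp4, against 9.56% of all 32851 windows. The nuclear receptor core AGGTCA was present in 8 of the 35 (22.9%), against 14.0% of all windows. A direct repeat of AGGTCA with 1 base between its copies, the textbook form of a Pparg-Rxr site, was in 0 of the 35 and in 0.0335% of all windows. All motifs were searched on both strands, and AGGTCA is contained in the direct repeat. Such matches describe letters in these windows and not binding.

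The sample labels describe the libraries as GFP+ mammary epithelial cells sorted by flow cytometry, whereas the text of the study speaks of profiled glands. White adipocyte RNA was abundant in all 6 libraries, which goes against a library of epithelial cells alone. The 33 genes took 2.11% to 4.76% of all counts. Their summed level was 8.67 to 30.2 times that of 30 epithelial markers, and 7 to 15 of them were among the 100 genes with the highest CPM in each library. The libraries are therefore called glands below. In such mixed tissue, fewer adipocytes and less RNA per adipocyte cannot be told apart.

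Compared per kilobase of exon, Cfd (adipsin, a secreted complement protease) had the highest level in WT glands, at 6799 ± 1670 CPM per kb (SD, n = 3). Next came Fabp4, the cytosolic fatty acid carrier, at 4839 ± 1493 CPM per kb, and Car3, a carbonic anhydrase abundant in adipocytes, at 4530 ± 2015 CPM per kb. The ranges of these genes over the 6 glands overlapped, and each stayed above Lpl, which had at most 1200 CPM per kb. Lpl and Adipoq followed, at 953 ± 263 and 934 ± 389 CPM per kb, within each other's spread. At the low end stood Aqp7, the glycerol channel, at 22.2 ± 6.26 CPM per kb. The highest and lowest members thus lay over 2 orders of magnitude apart, and a sum over the members mainly follows Cfd, Car3, Fabp4 and Lpl.

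**Figure D1:**
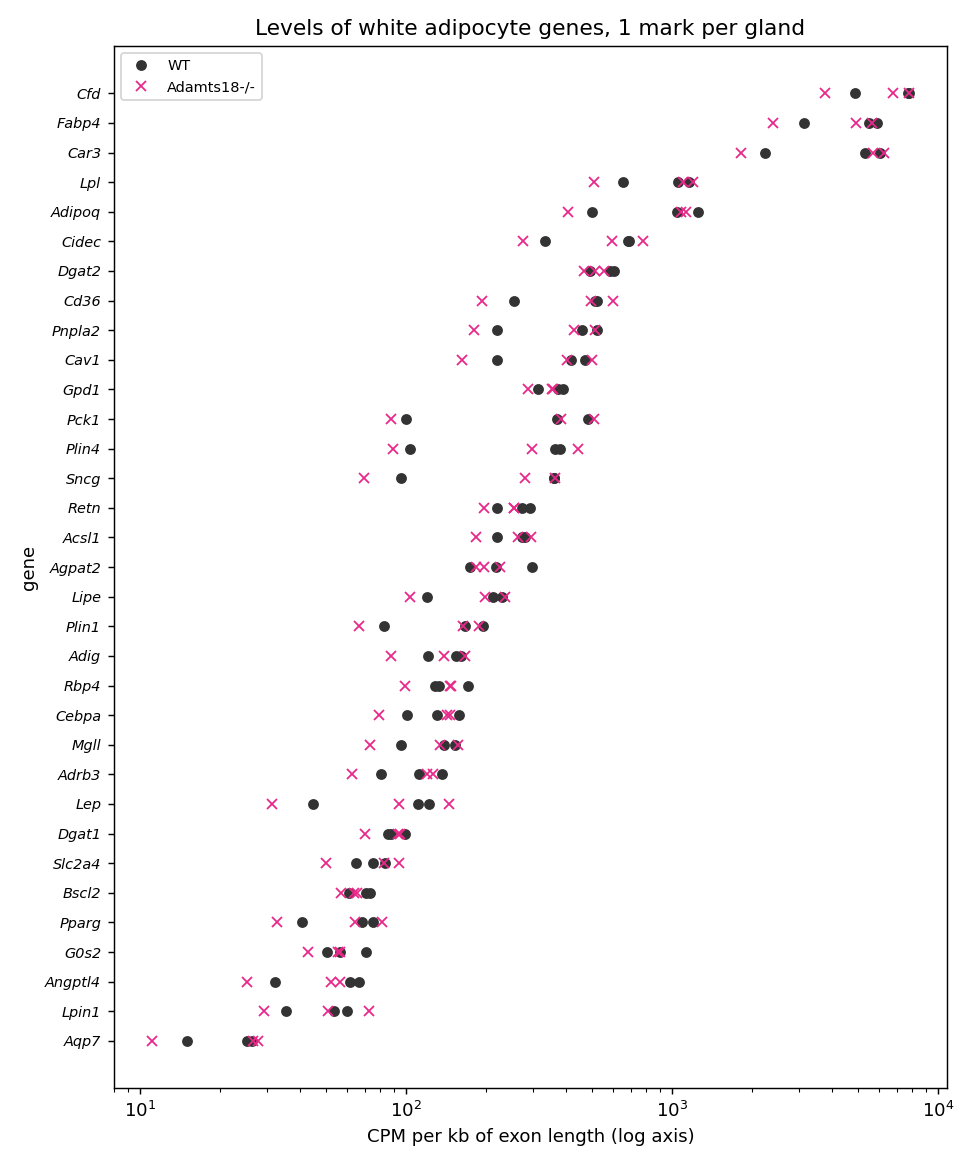
Level of each of the 33 genes in CPM per kb of exon length (log axis), 1 mark per gland, WT as filled circles and Adamts18-/- as crosses, ordered by the WT mean. Cfd, Fabp4 and Car3 lie above the rest, and for most genes 1 gland of each genotype lies to the left of the others.

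The transcription factors come first. Pparg, the nuclear receptor that directs adipocyte differentiation, stood, for mice 1, 2 and 3 in this order, at 179, 162 and 96.7 CPM in WT and 153, 193 and 77.6 CPM in Adamts18-/- glands. Cebpa, its partner in keeping adipocyte identity, stood at 416, 346 and 266 CPM in WT and 377, 386 and 209 CPM in Adamts18-/- glands. For both genes the glands of mouse 3 were the lowest on both sides, and the genotypes overlapped.

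Among the adipokines, Adipoq (adiponectin, which raises insulin sensitivity) had 1622, 1349.5 and 648 CPM in WT and 1390.1, 1458 and 525 CPM in Adamts18-/- glands. Lep had 398, 363 and 146 CPM in WT and 306, 473 and 102 CPM in Adamts18-/- glands. Cfd had 7182, 7132 and 4491 CPM on the WT side and 6218, 7187 and 3449.7 CPM on the other. In all 3 genes both glands of mouse 3 were below all glands of mice 1 and 2. Retn (resistin, a hormone made by mouse adipocytes) did not show this order, with 461, 347 and 429.7 CPM in WT and 402, 403 and 309 CPM in Adamts18-/- glands. Rbp4, the plasma carrier of retinol, ranged from 122 to 210 CPM and also did not separate the hosts.

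Lipid and glucose uptake genes were highest in mice 1 and 2. Fabp4 reached 4904, 5295 and 2807 CPM in WT and 4401, 5046 and 2142 CPM in Adamts18-/- glands. Lpl, the lipase that frees fatty acids from circulating lipoproteins, reached 4751, 4318 and 2696 CPM in WT and 4515, 4939 and 2099 CPM in Adamts18-/- glands. All 6 genes of the group had both glands of mouse 3 at the bottom. Cd36, a fatty acid transporter, ranged over the glands from 682 to 2115 CPM, and Acsl1, which couples fatty acids to coenzyme A, from 762 to 1235 CPM. Slc2a4, the insulin-regulated glucose transporter GLUT4, ranged from 141 to 265 CPM. Angptl4, a secreted inhibitor of lipoprotein lipase, had 203, 221 and 106 CPM in WT and 172, 188 and 83.7 CPM in Adamts18-/- glands, lower on the Adamts18-/- side in each host but overlapping between groups.

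The lipid droplet genes spread widely between hosts. Plin1 was at 754, 643 and 320.4 CPM in WT and 634, 729.7 and 258 CPM in Adamts18-/- glands. Cidec, which fuses droplets into a single large one, was at 1214, 1199 and 584 CPM in WT and 1048, 1369 and 482 CPM in Adamts18-/- glands. Both genes were lowest in the glands of mouse 3, on either side. Plin4, another droplet coat protein, lay at 1717 to 2562 CPM in the 4 glands of mice 1 and 2 and at 598 and 514 CPM in those of mouse 3. Cav1, the scaffold of caveolae, lay at 1242 to 1539 CPM against 682 and 500.4 CPM. Adig (adipogenin, a small droplet-associated protein) ranged from 55.4 to 106 CPM with the same order of hosts. Bscl2, which encodes seipin at the contact of droplet and endoplasmic reticulum, ranged only from 129 to 166 CPM, and its hosts overlapped.

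Genes of lipolysis shared the order of the droplet genes. Pnpla2, the lipase that takes the first fatty acid from triglyceride, had 1366, 1200.4 and 579 CPM in WT and 1121, 1343 and 471 CPM in Adamts18-/- glands. Lipe, the hormone-sensitive lipase that acts next, had 1258, 1168 and 660 CPM in WT and 1087, 1294 and 568 CPM in Adamts18-/- glands. In both genes the mouse 3 glands were the lowest and the genotypes overlapped. Mgll, which completes the release of glycerol, ranged from 353 to 756 CPM and Adrb3, the adrenergic receptor that starts lipolysis, from 181 to 394 CPM. Aqp7 ranged from 28.3 to 70.9 CPM and G0s2, an inhibitor of the Pnpla2 enzyme, from 37.2 to 61.8 CPM. All 6 lipolysis genes had both mouse 3 glands at the bottom.

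Triglyceride synthesis was the group in which members differed most among themselves. Pck1, which in adipocytes supplies glycerol 3-phosphate, was at 979, 1287 and 267 CPM in WT and 1017, 1353 and 234 CPM in Adamts18-/- glands. Lpin1, a phosphatidate phosphatase, lay at 315 to 448 CPM in mice 1 and 2 against 219 and 182 CPM in mouse 3. These genes had the mouse 3 glands at the bottom. Dgat2 and Dgat1, the enzymes of the last step, ranged from 1056 to 1369.5 CPM and from 133 to 187 CPM without such an order, and so did Gpd1, a glycerol 3-phosphate dehydrogenase, from 822 to 1110.4 CPM. Agpat2, an acyltransferase of the pathway, had the opposite order, with 259 to 325 CPM in mice 1 and 2 and 445 and 337 CPM in mouse 3. Of the remaining markers, Car3 had 10136, 8919 and 3763 CPM in WT and 9569, 10535 and 3057 CPM in Adamts18-/- glands. Sncg, a synuclein that white adipocytes also make, had 239 to 309 CPM in mice 1 and 2 and 81.4 and 59.0 CPM in mouse 3.

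**Figure D2:**
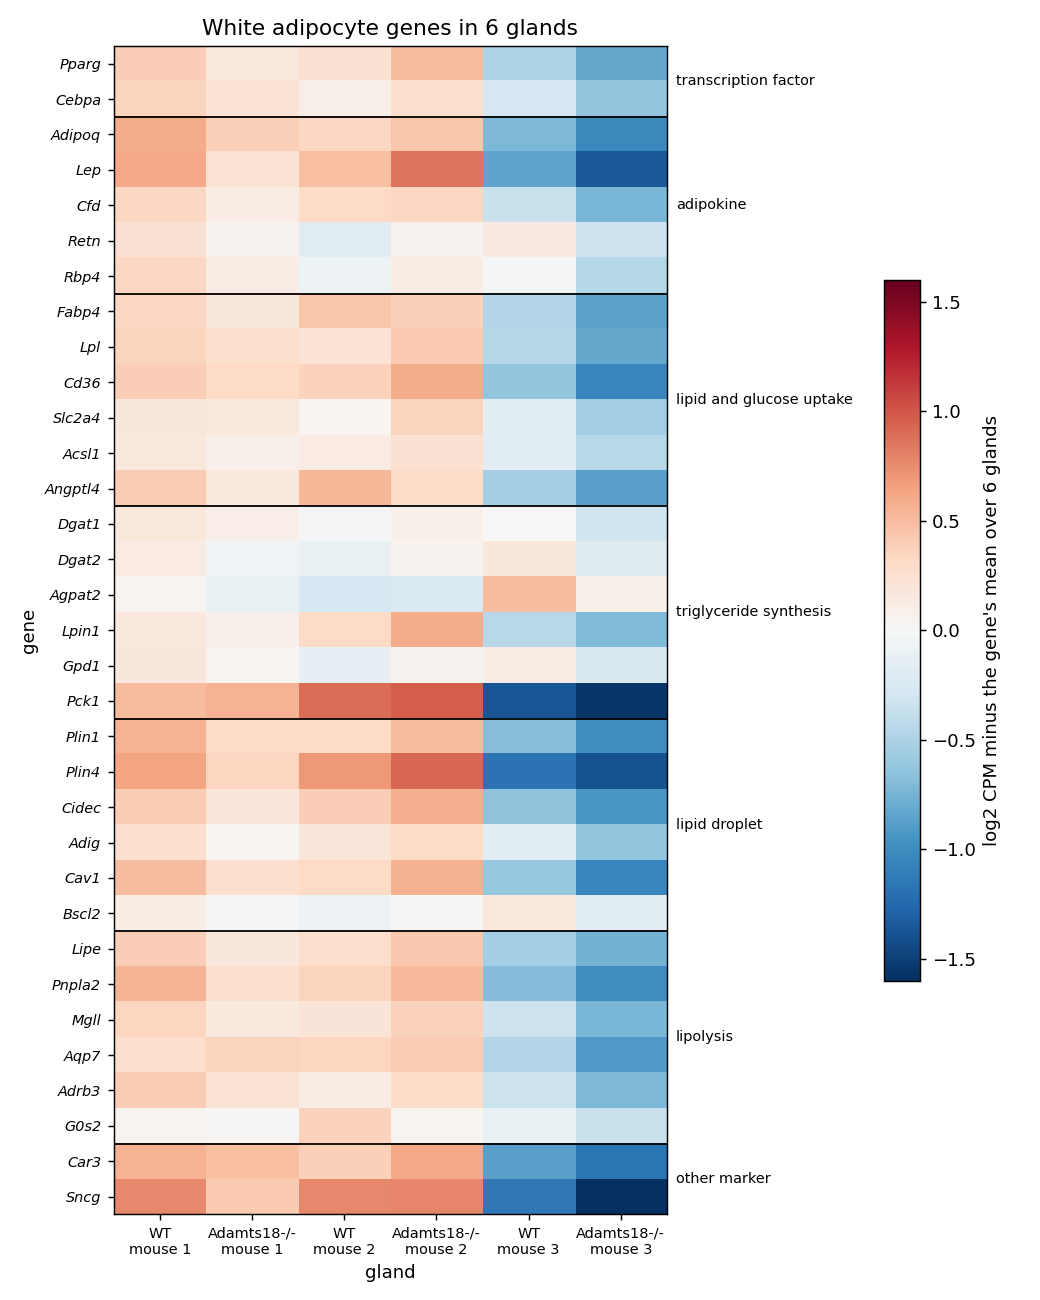
Log2 CPM of each gene minus its mean over the 6 glands (colour), genes in rows grouped by role, glands in columns by host and genotype. The columns of mouse 3 are blue for most genes, and Retn, Rbp4, Dgat1, Dgat2, Agpat2, Gpd1 and Bscl2 are near white or mixed.

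The first comparison asked whether the epithelial genotype was accompanied by another level of fat pad genes in the contralateral gland of the same host. No white adipocyte gene passed the thresholds that the study used, an Adamts18-/- to WT fold below 0.8 or above its reciprocal together with p below 0.05 before adjustment. With edgeR's quasi-likelihood test and the mouse as a block, 0 of 33 were lower in Adamts18-/- glands, against 1.84% of all genes tested, and 0 were higher, against 1.17%. By adjusted p under 0.05, 0 of the 33 and 0% of all genes were called by edgeR, and DESeq2, which called 71 of all genes, and limma-voom also called 0 of the 33. At an unadjusted p under 0.05 there was 1 of 33, Angptl4, against 3.86% of all genes in either direction and 2.47% lower in Adamts18-/- glands. No member had groups without overlap, whereas in 2.63% of all genes every Adamts18-/- gland lay below every WT gland and in 2.31% above.

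The fitted differences were small and had 1 sign. With TMM scaling all 33 fitted log2 differences (Adamts18-/- minus WT) were below 0, against 49.8% of all genes, whereas with scaling to the 30 epithelial markers all 33 were above 0. The members' median was -0.13 with TMM, beside 0.00065 for all genes tested. With epithelial scaling the median of all genes was 0.45 and that of the members 0.32. Relative to all genes the members stood at -0.13 under either scaling. A change of scaling shifts all genes nearly alike, so this likeness is not a second test. With TMM scaling the same value was -0.10 without mouse 1, -0.27 without mouse 2 and 0.004 without mouse 3. The summed epithelial level was itself lower on the Adamts18-/- side in each host, and the study reported fewer EGFP+ cells in such grafts. Members share the same 6 libraries, so their common sign is not a count of independent observations. In single fits the difference ranged from -0.27 for Angptl4 to -0.021 for Slc2a4, with standard errors of 0.073 to 0.20. The p-values measure the spread between these 3 pairs, with each gene's variance estimate drawn toward that of the other genes. They cover these 3 hosts only.

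Taken host by host in TMM-scaled CPM, the sign was not shared. The Adamts18-/- gland was lower for 31 of 33 genes in mouse 1 (52.5% of all genes), for 3 in mouse 2 (50.8%) and for 33 in mouse 3 (50.8%). The members' median difference was -0.18, 0.17 and -0.36 log2 in mice 1, 2 and 3. Only Fabp4, Angptl4 and G0s2 were lower on the Adamts18-/- side in all 3 hosts, 3 of 33 against 12.7% of all genes, and 0 of 33 were higher in all 3, against 10.8%. Mouse 2 therefore went the other way from mice 1 and 3 for most of the list. The 30 epithelial markers had median differences of 0.053, -0.75 and -0.48 in the same 3 hosts, and their part in the members' differences was not tested.

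Angptl4 was the member nearest to the thresholds. Its mean was 177 ± 61.7 CPM (SD, n = 3) in WT and 148 ± 56.1 CPM in Adamts18-/- glands, with both glands of mouse 3 the lowest. Within hosts the log2 differences were -0.24, -0.24 and -0.34. The fitted difference was -0.27 ± 0.073 (SE; 95% interval -0.46 to -0.082), a fold of 0.828 that did not reach 0.8, with an unadjusted p of 0.0150 and an adjusted p of 0.987 in edgeR. Without the block of paired glands the difference was -0.26 with an unadjusted p of 0.54, and without mouse 1 it was -0.29 with an unadjusted p of 0.105 in edgeR, above 0.05 in both cases. Sncg, at -0.27 ± 0.12, and G0s2, at -0.20 ± 0.089, came next, with unadjusted p of 0.0790 and 0.0800 in edgeR. Under epithelial scaling the fitted values of these 3 genes were 0.17, 0.17 and 0.25.

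For the defining adipocyte genes the intervals spanned 0. The 95% interval of the log2 difference ran from -0.49 to 0.22 for Adipoq and from -0.49 to 0.23 for Plin1. For Lep it was the widest of the list, -0.69 to 0.36. Pparg had an interval of -0.45 to 0.25 and Lpl of -0.53 to 0.36. Over the list the lower bounds lay between -0.69 and -0.32 and the upper bounds between -0.082 and 0.43.

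The count of members past the thresholds depended on mouse 2. Without mouse 2, 3 of 33 members were lower in Adamts18-/- glands, Lep at -0.44, Sncg at -0.41 and Adig at -0.34 log2, against 1.22% of all genes (214 of 17507), and the members' median was -0.26. Without mouse 3 the median was 0.004 and 15 of 33 fitted differences were below 0, and without mouse 1 the median was -0.098. The number of members higher in Adamts18-/- glands was 0 in every setting run.

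**Figure D3:**
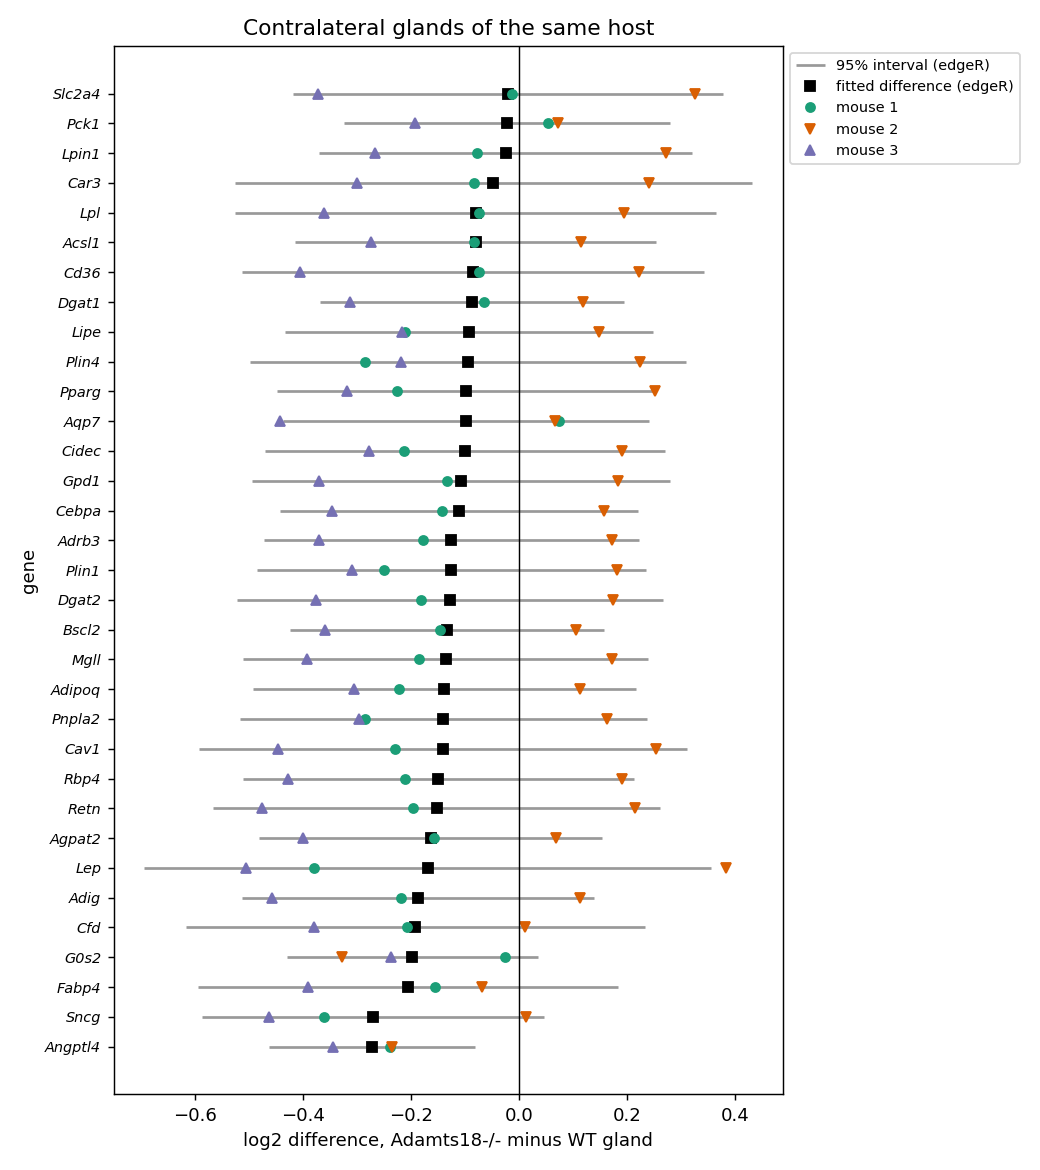
Log2 difference between the Adamts18-/- and the WT gland for each gene, with 1 coloured mark per host, the edgeR estimate with TMM scaling as a black square and its 95% interval as a grey line. Marks of mouse 2 lie mostly right of 0 and those of mouse 3 left of 0, every interval but that of Angptl4 spans 0, and with scaling to epithelial markers all 33 estimates lay above 0.

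The second comparison took the hosts themselves, the block of the first. Most white adipocyte genes had lower levels in both glands of mouse 3 than in those of mice 1 and 2. For 26 of 33 members both glands of mouse 3 lay below the other 4, against 24.1% of all genes tested, and for 1, Agpat2, both lay above, against 24.2%. The summed level of the 33 genes was 43184 to 49760 CPM in the 4 glands of mice 1 and 2 and 25674 and 20161 CPM in the WT and Adamts18-/- glands of mouse 3. The members' median log2 difference, mouse 3 minus the mean of mice 1 and 2, was -0.96, beside 0.0062 for all genes. Mice 1 and 2 were close to each other, with a median of 0.064 (mouse 2 minus mouse 1) and a range from -0.21 to 0.40.

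The size of the difference varied over the list by more than its error. Pck1 was lowest, at -2.20 ± 0.14 log2 (SE), followed by Sncg at -2.06 ± 0.14 and Plin4 at -1.94 ± 0.18. Lep was at -1.64 and Car3 at -1.52, while Adipoq, Plin1, Pnpla2, Cd36, Cav1 and Cidec lay between -1.32 and -1.18. In all, 13 members were lower in mouse 3 by more than 1 log2 unit, against 2.90% of all genes. The transcription factors Pparg (-0.98) and Cebpa (-0.69) lay nearer to the middle of the list. Around 0 stood Dgat2 (-0.0063 ± 0.16), Bscl2 (-0.0049 ± 0.12) and Gpd1 (-0.10 ± 0.16), and Agpat2 was at 0.44 ± 0.13.

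By role, the droplet genes had a median of -1.21, lipid and glucose uptake -0.98, lipolysis -0.88, the transcription factors -0.84 and the adipokines -0.81. The 6 genes of triglyceride synthesis had a median of -0.17, and 2 of them, Pck1 and Lpin1, had both mouse 3 glands below the others. Whether the roles differ from each other was not tested, since the groups hold few genes from the same libraries.

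The test of the mouse term asks for any difference among the 3 hosts, and not for mouse 3 against the others. In edgeR's test of this term over all genes, 3 of 33 members had an adjusted p under 0.05, against 0.628% of all genes. These were Pck1 (adjusted p = 0.0400), Sncg (adjusted p = 0.0470) and Angptl4 (adjusted p = 0.0476). The fitted fold of mice 1 and 2 over mouse 3, from the log2 differences, was 4.58, 4.17 and 2.07. At an adjusted p under 0.10 there were 18 of 33, against 11.5% of all genes, including Adipoq, Plin1, Lep, Cidec and Pparg. At an unadjusted p under 0.05 there were 25 of 33, against 27.2%. Each mouse is 1 animal with 2 glands, so the test shows that these hosts differed and says nothing of other animals.

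These calls depended on the tool, the filter and the scaling. DESeq2 called 26 members, against 19.2% of all genes, and limma-voom 4, against 0.755%. Without the filter on low counts edgeR called 15, against 4.50% of all genes, and with epithelial scaling 14, against 9.19%. When mouse 1, 2 or 3 was left out, which leaves 4 glands of 2 hosts, edgeR called 0 members, and over all genes it called 20, 12 and 48 in place of 109. Without mouse 3 the term compares only mice 1 and 2. With so few glands, these fits cannot show whether the calls depend on a single mouse. The direction for Dgat2 and Bscl2, both near 0, turned positive with library size scaling and with a filter of at least 10 counts in every library. For the other 31 members it was the same under each scaling and tool.

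**Figure D4:**
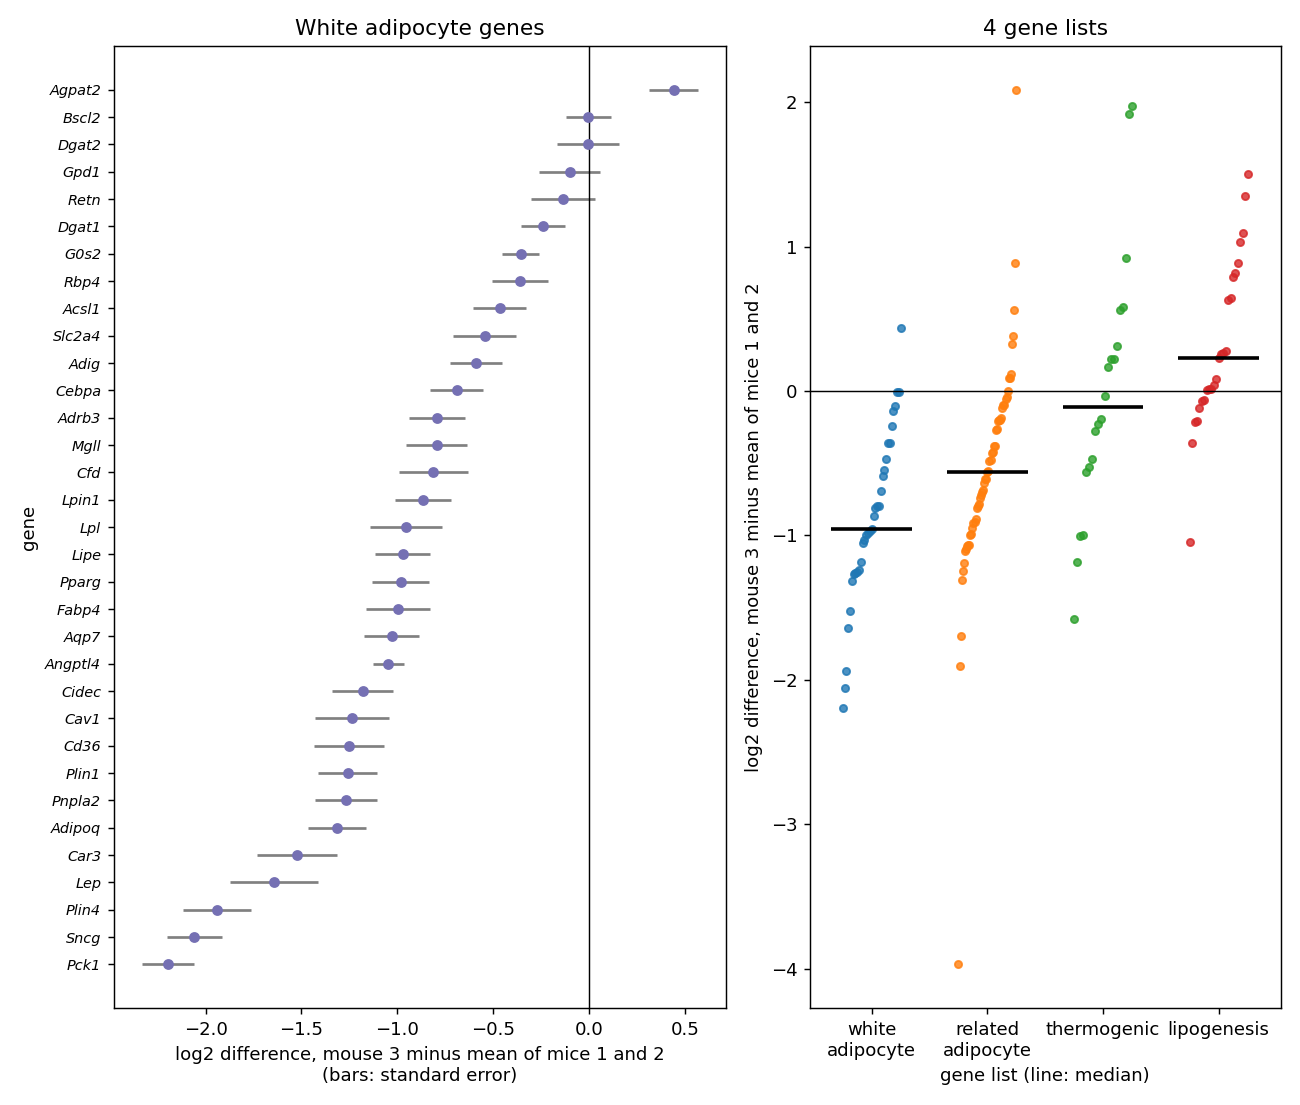
Left, log2 difference of mouse 3 minus the mean of mice 1 and 2 for each white adipocyte gene, with the standard error as a bar, and right, the same quantity for 4 gene lists with 1 point per gene and the median as a line. The medians are -0.96 for white adipocyte genes, -0.56 for related adipocyte genes, -0.11 for thermogenic genes and 0.23 for lipogenesis genes.

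Other genes of the adipocyte were taken from a list of 60 related genes, of which 55 were tested. None passed the genotype thresholds in either direction, and 49 of 55 fitted differences were below 0 with TMM scaling. The median of the 55, -0.076, was smaller in size than the 0.45 shift of epithelial scaling, so its sign depends on the scaling. That shift mirrors the lower epithelial level on the Adamts18-/- side and is not a measure of error. Between hosts, 38 of 55 had both mouse 3 glands below the others, against 24.1% of all genes, and the median was -0.56. The mouse term called 3 of the 55 at an adjusted p under 0.05, against 0.628% of all genes. Nnat (neuronatin, an endoplasmic reticulum protein) had 598, 785 and 46.7 CPM in WT and 543, 723 and 37.4 CPM in Adamts18-/- glands and was the most different, at -3.97 log2 (adjusted p = 0.0187 in edgeR). Npr3, the clearance receptor for natriuretic peptides, was at 256 to 313 CPM in mice 1 and 2 and 88.0 and 68.2 CPM in mouse 3 (adjusted p = 0.0484). Mogat2, a monoacylglycerol acyltransferase, went the other way, from 2.50 to 3.97 CPM to 14.8 and 12.3 CPM (adjusted p = 0.0470). Its mouse 2 minus mouse 1 difference was -0.59 ± 0.18 log2 (SE).

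The lipogenic enzymes did not follow the storage genes between hosts. Of 25 lipogenesis genes tested, 3 had both mouse 3 glands below the others, 10 had both above and 12 had neither order. Among all genes, 24.1% were below and 24.2% above. The median of the list was 0.23, and 0 passed the genotype thresholds in either direction. Fasn, the fatty acid synthase, ranged from 7959 to 11254 CPM, and Scd1, which desaturates its products, from 7874 to 14549 CPM, with hosts overlapping. Acly, which supplies acetyl coenzyme A from citrate, was at 944 to 1351 CPM in mice 1 and 2 and 2688 and 2237 CPM in mouse 3 (adjusted p = 0.0647). Acss2, which makes acetyl coenzyme A from acetate, was at 97.3 to 183 CPM against 419 and 342 CPM. It was the 1 lipogenesis gene of 25 that edgeR's mouse term called (adjusted p = 0.0470), against 0.628% of all genes. For Acss2 mice 1 and 2 also differed, at -0.77 ± 0.14 log2 (mouse 2 minus mouse 1, SE). In mouse 3 most storage genes therefore stood below their levels in mice 1 and 2. Of the 25 lipogenesis genes, 10 stood above theirs, Acly and Acss2 among them. The difference between the lists was not tested.

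Ucp1, the uncoupling protein of brown and beige adipocytes, ranged from 0.281 to 1.44 CPM, above the limit of 3 counts and below every white adipocyte gene in each gland. Other thermogenic genes reached the levels of the lower members, such as Pdk4, a kinase that limits glucose oxidation, at 46.9 to 126 CPM. The 20 thermogenic genes tested summed to 266.6 to 280.2 CPM in WT and 220.4 to 282.2 CPM in Adamts18-/- glands. Of these 20, 2 were lower in Adamts18-/- glands at the unadjusted thresholds, against 1.84% of all genes, and 1 was higher, against 1.17%. The lower genes were Cited1 (-1.06 log2), which epithelial cells also express, and Adrb1 (-0.46, near the size of the epithelial scaling shift). The study took Cited1 as a Yap/Taz target and reported lower transcript levels of it in pubertal glands of Adamts18-/- mice. The higher gene was Tbx1 (1.21), at only 0.603 to 1.68 CPM. The adjusted p in edgeR was 0.771 for Cited1, 0.987 for Adrb1 and 0.987 for Tbx1.

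Markers of other cell types also varied with host and genotype. Of 12 endothelial markers, 10 had both mouse 3 glands below the others, with sums of 1071 to 1502 CPM in WT and 901 to 1512 CPM in Adamts18-/- glands, and all 12 fitted genotype differences were below 0 with TMM scaling, by less than the 0.45 shift of epithelial scaling. Of 14 adipose progenitor markers, 6 had both mouse 3 glands below the others. For fibroblasts it was 2 of 13, for macrophages 1 of 12 and for epithelial cells 0 of 30, beside 24.1% of all genes. The epithelial sum was 2028, 2770.5 and 2960.2 CPM in WT and 1976, 1650.1 and 2023 CPM in Adamts18-/- glands. With TMM scaling 9 of the 30 were lower in Adamts18-/- glands at the thresholds used, against 1.84% of all genes. These thresholds rest on unadjusted p, and by adjusted p under 0.05 edgeR called 0% of all genes. None of the tested markers of these lists was at 0 in any gland. Their part in the adipocyte differences was not tested.

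Skeletal muscle RNA set the sides apart in 2 hosts. The 14 muscle markers summed to 412.9, 1135 and 3706 CPM in WT and to 14326, 14437 and 2494 CPM in Adamts18-/- glands, none of them passed the genotype thresholds, and none was at 0. In mice 1 and 2 the muscle sum was higher on the Adamts18-/- side and in mouse 3 on the WT side. White adipocyte genes did not share this pattern, since most were lower on the Adamts18-/- side in mice 1 and 3 and higher in mouse 2. The part of muscle RNA in their levels was not tested.

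**Figure D5:**
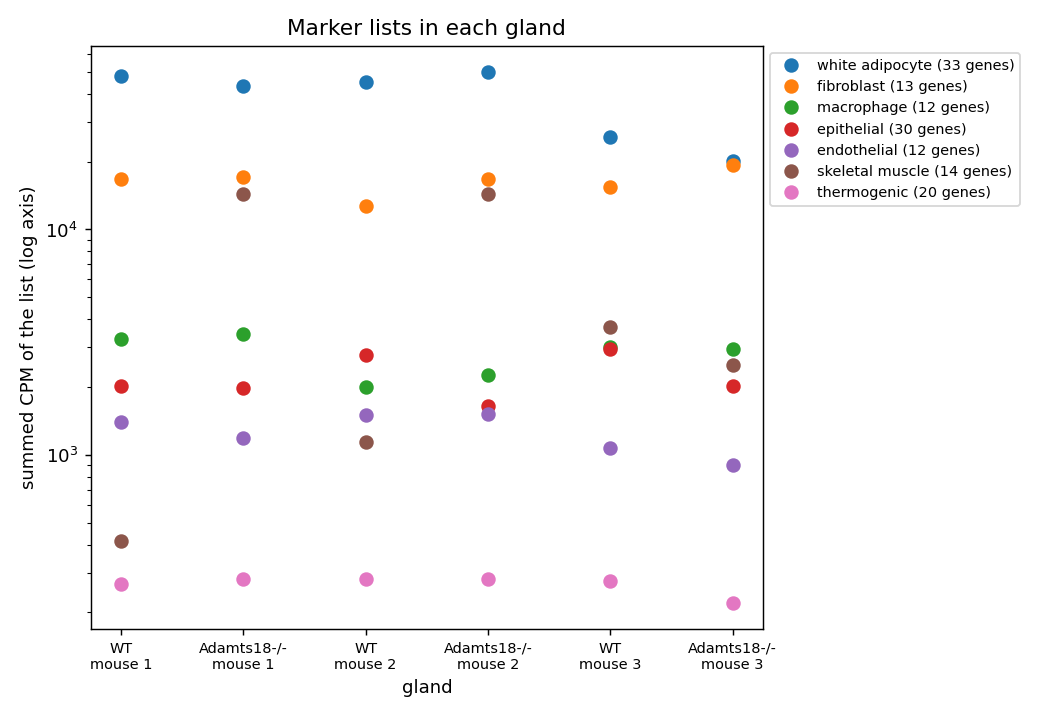
Summed CPM of 7 gene lists in each of the 6 glands (log axis), 1 point per list and gland. The white adipocyte sum is 43184 to 49760 in the 4 glands of mice 1 and 2 and 20161 to 25674 in mouse 3, and the muscle sum is highest in the Adamts18-/- glands of mice 1 and 2.

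The exons of 7 members overlap those of another gene in the GENCODE M21 annotation, and the strand setting of the counting was not given in the sources used here. The shared part was largest for Adrb3, 18.8% of its exon length with an antisense gene, for Bscl2, 17.6% with Gng3, for Lipe, 15.7%, and for Gpd1, 13.4%. For Cebpa, Plin4 and Mgll it was at most 3.15%. All but 1 of these overlaps, that of Bscl2 with AC129217.1 (10.6%), are with a gene on the opposite strand, so whether the counts of these members include reads of the other gene depends on that setting.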

How the data were processed

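The values the authors deposited are raw, unscaled counts of reads for each gene symbol, in 6 columns named by genotype and a number. Per the labels the reads were 85 bases long and single-end, and the submitters' processing notes name bcl2fastq 2.18, TopHat2 2.0.11, featureCounts 1.6.2, edgeR and the mm9 build. The annotation and strand setting are not given in the sources used here. Groups and side came from the sample titles and genotype labels. The number in each title was read as the host, and columns were matched to samples by genotype and number.

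Counts were filtered by edgeR 4.0.16 (R 4.3.3), scaled by TMM and fitted with terms for genotype and mouse. The quasi-likelihood test was run over 17345 genes with Benjamini-Hochberg adjustment, for genotype and for the mouse term. The mouse block follows the contralateral design, and same-host glands deviated together (r = 0.512, 0.505 and 0.639 across genes). CPM used TMM library sizes, and per-host log2 values a prior count of 2. No 2 libraries were near-identical. The fit was tested on simulated data.

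The members and lists were chosen with earlier results of these data known. Every member is named with a value, and 14 were set to be given in all glands. Of other lists, related genes past the genotype thresholds and defining markers were to be named. Nnat, Npr3, Mogat2, Cited1, Adrb1, Tbx1, Pdk4, Acss2, Acly, Fasn and Scd1 were named after their values were seen. Gene lengths came from GENCODE M21 (GRCm38), which is not the build of the counts, so no coordinates of whole genes are given. Promoter windows and their GRCm38.p6 coordinates came from RefSeq and were not used with the counts. Alternatives were DESeq2 1.42.0, limma-voom (limma 3.58.1), RLE, library size and epithelial scaling, no filter, at least 10 counts in every library, no replicate block, no fold threshold and leaving out each mouse.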

Additional observations from a re-analysis of the deposited data

How the results depend on the processing

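Without the replicate block of contralateral pairs, 125 genes were lower in Adamts18-/- glands in place of 319, and the fitted differences of Car3 (0.022), Lpin1 (0.034), Pck1 (0.039) and Slc2a4 (0.022) turned positive. Angptl4 lost its unadjusted call without the block, and no member passed the thresholds with or without it. DESeq2 called 71 genes by adjusted p and 340 higher, and for the mouse term 26 members and 3326 genes. limma-voom called 345 genes higher. Without the filter on low counts 352 genes were higher, and the mouse term called 15 members and 1106 genes. With no fold threshold 1 member was lower, Angptl4. With epithelial scaling 28 genes were lower, 2014 higher and 355 past an adjusted p of 0.05, the mouse term called 14 members and 1594 genes, 0 members were fitted below 0, and the members' median was 0.32, beside a shift of all genes of 0.45. The fitted log2 values were then Acsl1 0.36, Adig 0.26, Adipoq 0.31, Adrb3 0.32, Agpat2 0.28, Angptl4 0.17, Aqp7 0.34, Bscl2 0.31, Car3 0.40, Cav1 0.30, Cd36 0.36, Cebpa 0.33, Cfd 0.25, Cidec 0.34, Dgat1 0.36, Dgat2 0.32, Fabp4 0.24, G0s2 0.25, Gpd1 0.34, Lep 0.27, Lipe 0.35, Lpin1 0.42, Lpl 0.36, Mgll 0.31, Pck1 0.42, Plin1 0.32, Plin4 0.35, Pnpla2 0.30, Pparg 0.34, Rbp4 0.29, Retn 0.29, Slc2a4 0.42 and Sncg 0.17.

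Mouse effects that turned positive were Bscl2 (0.0015) and Dgat2 (0.00011) with at least 10 counts in every library, and Bscl2 (0.089) and Dgat2 (0.088) with library size scaling. Leaving out 1 mouse at a time gave 214 to 481 genes lower, 182 to 581 higher, 0 to 268 past an adjusted p of 0.05, 0 to 3 members lower, 15 to 33 members fitted below 0, a members' median of -0.26 to 0.004, and for the mouse term 0 to 0 members and 12 to 48 genes. Genotype effects of members that turned sign then ranged in log2 for Acsl1 -0.18 to 0.0237, Adrb3 -0.27 to 0.00556, Aqp7 -0.19 to 0.0787, Car3 -0.19 to 0.0867, Cav1 -0.34 to 0.02, Cd36 -0.24 to 0.0818, Cebpa -0.24 to 0.0148, Dgat1 -0.19 to 0.0342, Dgat2 -0.28 to 0.004, Gpd1 -0.25 to 0.0327, Lep -0.44 to 0.00923, Lpin1 -0.17 to 0.10, Lpl -0.22 to 0.068, Mgll -0.29 to 0.000525, Pck1 -0.0696 to 0.0709, Plin4 -0.25 to 0.00151, Pparg -0.27 to 0.0208, Retn -0.34 to 0.0173 and Slc2a4 -0.19 to 0.16, and host differences for Bscl2 -0.0405 to 0.0292 and Dgat2 -0.0364 to 0.0237. The cause of these changes was not tested. RLE scaling changed no call or sign of a member.

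The depth was high for all 33 members, each with at least 1742 counts in every library, so the 3 hosts and not counting limit precision. Genotype and side cannot be told apart, nor host, donor and experiment.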

Other observations

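Of the 55 related adipocyte genes, 38 had both mouse 3 glands below the other 4, 5 had both above and 12 had neither order, beside 24.1% of all genes below and 24.2% above. The genes named here were chosen after their values were seen. Gpr81, the lactate receptor that restrains lipolysis, was at 53.96 to 65.1 CPM in mice 1 and 2 and 29.4 and 23.6 CPM in mouse 3. Pde3b, the phosphodiesterase through which insulin restrains lipolysis, was at 226 to 259 CPM against 113 and 113 CPM. Ptger3, a prostaglandin receptor that also restrains lipolysis, had the opposite order, at 37.3 to 43.9 CPM in mice 1 and 2 and 57.5 and 50.1 CPM in mouse 3. The adjusted p of the mouse term in edgeR was 0.0583, 0.0546 and 0.128 for these genes. Fabp5, a fatty acid carrier of fat cells and macrophages, had both glands of mouse 3 above the others too, at 75.0 to 82.0 CPM in mice 1 and 2 and 158 and 129 CPM in mouse 3 (adjusted p = 0.0555 in edgeR).

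Among the 14 adipose progenitor markers, 6 had both mouse 3 glands below the others, 1 had both above and 7 had neither order. Fgf10, a growth factor of the fat pad that acts on epithelium, was among the 6, at 62.3 to 74.1 CPM in mice 1 and 2 and 37.0 and 25.4 CPM in mouse 3. Icam1, an adhesion molecule, was the 1 above, at 40.1 to 52.3 CPM against 66.5 and 85.4 CPM. Both were named after their values were seen. Cd55, a complement regulator on the cell surface, was the 1 of 14 past the genotype thresholds, against 1.84% of all genes lower and 1.17% higher. It stood at 142, 89.5 and 141 CPM in WT and 177, 137 and 152 CPM in Adamts18-/- glands, higher on the Adamts18-/- side in all 3 hosts, with a fitted log2 difference of 0.34 ± 0.12 (SE) and an unadjusted p of 0.0349 in edgeR that did not survive adjustment.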
